A study of Mus musculus with 12 samples.

Results

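RNA of 10 genes of the intercalated disc was followed in cultured mouse cardiomyocytes that received PBS, mLIF, mOSM or hlOSM. The genes are Dsp, Pkp2, Jup, Dsg2, Dsc2, Cdh2, Ctnna3, Gja1, Xirp1 and Xirp2, and they are 10 of the 22915 genes in the table. They were chosen by name, since each codes for a protein of the junctions between heart muscle cells. The choice was made with earlier results of these data known. Counts of these genes beside the share of all genes are therefore a description. Cells were primary cardiomyocytes of adult male C57/Bl6 mice, 12 weeks of age, kept for 24 h in normoxia in serum-free medium. One group received sterile PBS, the solvent of the proteins. The 3 others received recombinant mLIF (murine leukemia inhibitory factor), mOSM (murine oncostatin M) or hlOSM (a chimeric, human-like oncostatin M), each at 25 ng/ml in the sample descriptions, while the methods of the study give a slightly lower dose. Each condition had 3 libraries, 12 in all, and while the study's methods speak of biological replicates, no source used here says whether these came from separate animals, so that the p-values measure only the spread between these libraries. The values are the authors' normalized counts, which are not divided by gene length.

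The intercalated disc is the end-to-end contact of cardiomyocytes. Desmosomes anchor intermediate filaments there, adherens junctions anchor the actin of the sarcomeres, and gap junctions let the electrical impulse pass from cell to cell. In the mammalian heart the mechanical junctions mix into a hybrid zone, the area composita, and mutations in desmosomal genes are a known cause of arrhythmogenic cardiomyopathy. mOSM acts through the receptor OSMR and mLIF through LIFR, both paired with gp130, and hlOSM was built to act through both receptors.

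Oncostatin M, in either form, was accompanied by lower RNA of 6 of these 10 genes on the deposited scale. Of all tested genes, 15.8% were lowered and 15.4% raised with mOSM, and 19.8% and 18.2% with hlOSM. With hlOSM, Dsp, Dsg2, Gja1, Ctnna3, Cdh2 and Pkp2 fell against PBS and Jup rose, while Dsc2, Xirp1 and Xirp2 did not pass the test. The Pkp2 call with hlOSM was not firm, as given below. With mOSM the same 6 genes fell and Jup rose. With mLIF Dsp was the gene that passed, beside 4.44% of all tested genes lowered. The deepest fall, that of Dsp with hlOSM, was to 0.669 of its PBS level. On a scale relative to the RNA of 8 cardiomyocyte marker genes, which fell too, Dsp was the 1 gene of the 10 that was lowered by mOSM and hlOSM, and none was by mLIF. Its call with mOSM stood close to the threshold on that scale (limma, adjusted p = 0.0450). Of all tested genes, 4.26%, 5.69% and 0.796% were lowered there with mOSM, hlOSM and mLIF.

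RefSeq (GRCm38.p6, the assembly behind mm10) was used to place the genes on the genome. The stretches of 250 bases before the RNA start were taken for 5 of the 10 members, with 7 starts. Those of Dsp, the gene that fell most, Gja1, the gap junction gene that fell, Jup, the gene that rose, and Xirp2, with a MEF2 and an AP-1 match, are shown 5′ to 3′ on the strand of the gene. They lie at chr13:38151044-38151293 on the plus strand for Dsp, chr10:56377050-56377299 on the plus strand for Gja1, chr11:100397791-100398040 on the minus strand for Jup and chr2:67445752-67446001 on the plus strand for Xirp2. Capitals mark matches to 2 of 4 motifs that were searched on both strands.
Dsp: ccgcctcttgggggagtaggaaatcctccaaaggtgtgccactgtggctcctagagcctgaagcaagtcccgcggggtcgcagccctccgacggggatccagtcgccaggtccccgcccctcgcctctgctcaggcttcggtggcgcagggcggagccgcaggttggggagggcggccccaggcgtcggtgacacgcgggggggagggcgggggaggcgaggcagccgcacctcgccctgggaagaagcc
Jup: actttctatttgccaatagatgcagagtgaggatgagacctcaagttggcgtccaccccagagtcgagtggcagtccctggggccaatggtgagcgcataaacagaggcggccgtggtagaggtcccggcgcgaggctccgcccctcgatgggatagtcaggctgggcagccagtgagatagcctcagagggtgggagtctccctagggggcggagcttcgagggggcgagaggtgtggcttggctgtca
Gja1: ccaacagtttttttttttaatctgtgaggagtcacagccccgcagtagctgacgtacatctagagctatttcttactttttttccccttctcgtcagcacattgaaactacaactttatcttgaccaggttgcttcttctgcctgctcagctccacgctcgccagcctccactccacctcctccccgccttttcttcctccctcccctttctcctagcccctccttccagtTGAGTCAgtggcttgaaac
Xirp2: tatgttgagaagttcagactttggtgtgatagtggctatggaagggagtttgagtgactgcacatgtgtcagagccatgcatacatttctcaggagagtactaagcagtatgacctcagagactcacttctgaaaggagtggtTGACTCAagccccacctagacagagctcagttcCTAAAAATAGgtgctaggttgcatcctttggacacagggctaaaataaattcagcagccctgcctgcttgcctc
The motifs were STAT (TTCNNNGAA), AP-1 (TGANTCA), TEAD (GGAATG) and the MEF2 motif. Neither Dsp nor Jup has any of the 4 in this stretch. Gja1 has an AP-1 match at positions -19 to -13 from the RNA start. Xirp2 has an AP-1 match at -107 to -101 and a MEF2 match at -74 to -65. One of the 3 starts of Ctnna3 has a TEAD match at -109 to -104. Pkp2, Xirp1, Dsg2, Dsc2 and Cdh2 were not searched, so nothing is known here of motifs before their starts. Among all 32851 stretches in the same table, 7.02% hold the STAT motif, 6.749% AP-1, 12.642% TEAD and 3.202% MEF2. The RefSeq starts of Gja1 and Jup lie 30 and 27 bases upstream of the gene starts in the authors' table, and that of Xirp2 lies 272168 bases inside its gene. These matches are letters only, and say nothing of binding.

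Library totals lay between 2745748 and 2911891 normalized counts, and the 10 genes held 0.5797% to 0.6782% of a library. Such totals do not give the reads counted. The study's methods give an average number of reads per library, but the counted reads behind a single value are unknown. All 10 genes passed the filter on low values (10 or more in 3 or more libraries), as did 13184 genes in all. Replicates of a condition were close, with coefficients of variation between 1.26% and 11.8% and a median of 4.10% over the 10 genes and 4 conditions. Averaged over conditions, replicate numbers differed almost not at all: the SD of the log2 difference between replicates 3 and 1 was 0.0019 over 6626 well-measured genes, while that between any 2 libraries of a condition was 0.1125 to 0.174. A fit without a block for the replicate number then understates the residual spread, and its p-values are too small to that extent, so that counts of called genes are also given from a fit with the block.

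Per exonic kilobase, the 10 genes kept a single order of mean level in all 4 conditions. Xirp2 was highest at 591 ± 7.5 normalized counts per kb (SD, n = 3) in PBS, then Xirp1 at 385 ± 13.9 and Dsp at 381 ± 16.4. Cdh2 followed at 208 ± 7.43, Gja1 at 200 ± 7.97, Pkp2 at 151 ± 8.73 and Jup at 103 ± 3.53. Dsg2 at 70.3 ± 2.94, Ctnna3 at 42.2 ± 2.30 and Dsc2 at 26.5 ± 2.01 were the lowest. Libraries of Xirp1 and Dsp overlapped in PBS, and those of Cdh2 and Gja1 in PBS, mLIF and mOSM, so that these neighbours were not separated there. With hlOSM the libraries of Xirp1 lay at 384 to 403 per kb and those of Dsp at 246 to 260, without overlap. The exonic lengths were computed from GENCODE M21, and reads of genes that overlap on the other strand can enter where counting ignored strand; such overlaps cover 5.17% of the exonic bases of Dsp, 3.99% of Dsg2 and 1.4% of Xirp2.

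**Figure D1:**
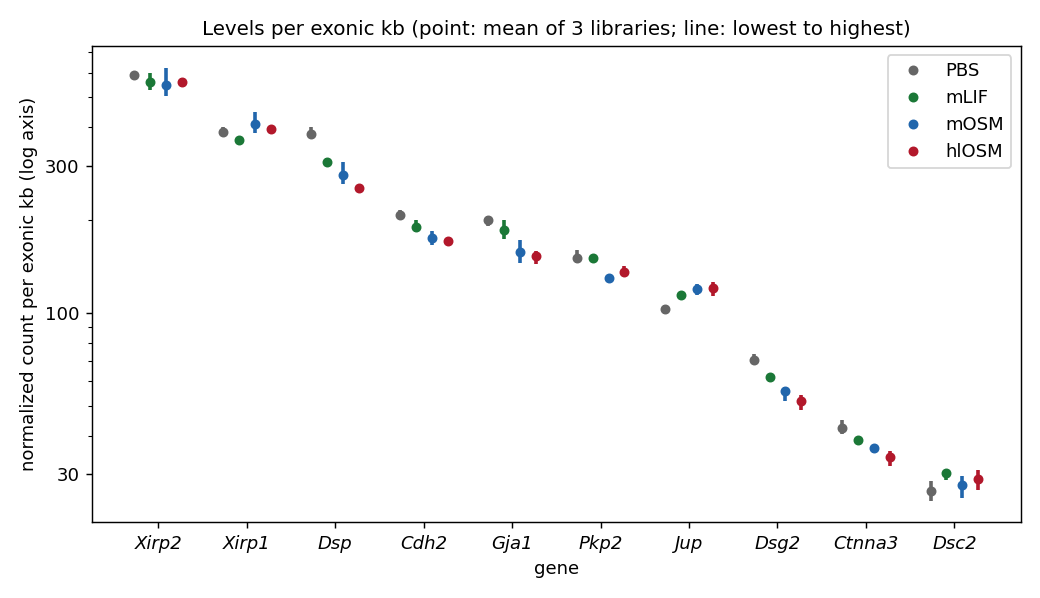
Normalized counts per exonic kilobase (log axis) of the 10 genes in PBS, mLIF, mOSM and hlOSM; points are means of 3 libraries and lines run from the lowest to the highest library. The order from Xirp2 to Dsc2 holds in all 4 conditions, and the step between Xirp1 and Dsp widens from PBS (385 and 381 per kb) to hlOSM (395 and 255).

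Tests used limma on log2(normalized count + 1) with the 12 libraries in 1 fit, and p-values were adjusted (Benjamini-Hochberg) over the 13184 genes. With mLIF, 0 of the 10 genes were raised and 1 was lowered, where 5.47% of all tested genes were raised and 4.44% lowered. With mOSM, 1 was raised and 6 lowered, beside 15.4% and 15.8% of all genes. With hlOSM, 1 was raised and 6 lowered, beside 18.2% and 19.8%. For mLIF, mOSM and hlOSM in turn, the median log2 fold change of the 10 genes was -0.09, -0.21 and -0.21, while that of all tested genes was 0.0004, -0.0043 and -0.0052. In the blocked fit, 0 were raised and 1 lowered, then 1 and 6, and then 1 and 5, beside 3.39% and 2.56%, 12.5% and 12.8%, and 14.7% and 16.5% of all genes. After quantile rescaling 1, 2 and 2 genes were raised by mLIF, mOSM and hlOSM, beside 5.7%, 15.2% and 18.7% of all genes, since Jup with mLIF (adjusted p = 0.0262) and Xirp1 with mOSM (0.00115) and hlOSM (0.00377) then passed.

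Among the desmosomal genes, Dsp codes for desmoplakin, which links the desmosomal plaque to the desmin filaments (chromosome 13, 38151294 to 38198577 on mm10, ENSMUSG00000054889). Its normalized counts in replicates 1, 2 and 3 were 3633, 3557 and 3861 in PBS, 2998, 3079 and 2890 under mLIF, 2593, 2535 and 2991 under mOSM, and 2502, 2514 and 2376 under hlOSM. The PBS libraries lay above those of every cytokine, and the hlOSM libraries lay below those of the other conditions. The log2 fold change against PBS was -0.30 ± 0.06 (SE) with mLIF (limma, adjusted p = 0.00200), -0.45 ± 0.06 with mOSM (2.61e-06) and -0.58 ± 0.06 with hlOSM (5.10e-08). Dsp was thus the gene of the 10 that passed with all 3 proteins, and mOSM replicate 3 stood at the mLIF level. Pkp2 codes for plakophilin 2, the armadillo protein that holds desmoplakin in the plaque (chromosome 16, 16213318 to 16272712, ENSMUSG00000041957). Its counts were 781, 779 and 861 in PBS, 826, 808 and 796 under mLIF, 694, 710 and 690 under mOSM, and 717, 709 and 761 under hlOSM. The mOSM and hlOSM libraries lay below all PBS and mLIF libraries. The fold change was 0.01 ± 0.05 with mLIF (adjusted p = 0.952), -0.21 ± 0.05 with mOSM (0.00454) and -0.15 ± 0.05 with hlOSM (0.0349). The last call was not firm: adjusted p was 0.0647 with the replicate block, 0.201 without PBS replicate 3, 0.0959 without hlOSM replicate 1 and 0.123 without hlOSM replicate 2.

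Jup codes for plakoglobin, a close relative of beta-catenin that sits in both desmosomes and adherens junctions (chromosome 11, 100368958 to 100397763, ENSMUSG00000001552). It had normalized counts of 685, 640 and 668 in PBS, 712, 742 and 750 under mLIF, 736, 797 and 776 under mOSM, and 780, 732 and 810 under hlOSM. Every library of a cytokine lay above every PBS library. The log2 fold change was 0.15 ± 0.05 with mLIF (limma, adjusted p = 0.0934), 0.21 ± 0.05 with mOSM (0.00467) and 0.22 ± 0.05 with hlOSM (0.00289). Jup therefore went up by about 1.16-fold with either form of oncostatin M while its plaque partners Dsp and Pkp2 went down on the deposited scale. The desmosomal cadherins Dsg2 (desmoglein 2; chromosome 18, 20558074 to 20604521, ENSMUSG00000044393) and Dsc2 (desmocollin 2; chromosome 18, 20030633 to 20059554, ENSMUSG00000024331) bind their partners on the next cell. Dsg2 had counts of 566, 568 and 609 in PBS, 524, 526 and 492 under mLIF, 476, 428 and 476 under mOSM, and 402, 439 and 448 under hlOSM. No library of a cytokine reached the PBS range. The fold change of Dsg2 was -0.18 ± 0.06 with mLIF (adjusted p = 0.0715), -0.34 ± 0.06 with mOSM (0.000204) and -0.44 ± 0.06 with hlOSM (7.31e-06). Dsc2 had counts of 138, 130 and 151 in PBS, 152, 163 and 163 under mLIF, 148, 156 and 133 under mOSM, and 153, 141 and 163 under hlOSM. Its conditions overlapped, apart from mLIF, whose libraries all lay just above the highest of PBS. Its fold change was 0.19 with mLIF (95% interval 0.01 to 0.37, adjusted p = 0.166), 0.06 with mOSM (-0.12 to 0.24, 0.640) and 0.12 with hlOSM (-0.05 to 0.30, 0.270), so the 2 cadherins did not give the same picture.

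In the adherens junction and area composita, Cdh2 codes for N-cadherin, the classical cadherin of cardiomyocytes (chromosome 18, 16588877 to 16809246, ENSMUSG00000024304). Its normalized counts were 1659, 1627 and 1743 in PBS, 1616, 1490 and 1478 under mLIF, 1338, 1421 and 1488 under mOSM, and 1351, 1388 and 1416 under hlOSM. All mLIF, mOSM and hlOSM libraries lay below all PBS libraries. The log2 fold change was -0.13 ± 0.05 with mLIF (limma, adjusted p = 0.108), -0.24 ± 0.05 with mOSM (0.00108) and -0.27 ± 0.05 with hlOSM (0.000266). Ctnna3 codes for alpha-T-catenin, which binds plakophilin 2 and ties the cadherin complex to actin in the area composita (chromosome 10, 63430098 to 65003667, ENSMUSG00000060843). Its counts were 300, 292 and 324 in PBS, 285, 275 and 277 under mLIF, 269, 254 and 268 under mOSM, and 231, 257 and 249 under hlOSM. Every library of a cytokine lay below the lowest of PBS. The fold change was -0.13 ± 0.07 with mLIF (adjusted p = 0.221), -0.21 ± 0.07 with mOSM (0.0171) and -0.31 ± 0.07 with hlOSM (0.000635). The call with mOSM was lost without PBS replicate 3 (adjusted p = 0.0952) or mOSM replicate 2 (0.0726).

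Gja1 codes for connexin 43, the main gap junction protein of the ventricle (chromosome 10, 56377330 to 56402513, ENSMUSG00000050953). Its normalized counts were 2111, 1959 and 2087 in PBS, 2048, 1888 and 1779 under mLIF, 1488, 1596 and 1764 under mOSM, and 1481, 1593 and 1632 under hlOSM. The libraries of both forms of oncostatin M lay below all PBS and mLIF libraries, while those of mLIF reached into the PBS range. The log2 fold change was -0.11 ± 0.06 with mLIF (limma, adjusted p = 0.284), -0.35 ± 0.06 with mOSM (0.000178) and -0.39 ± 0.06 with hlOSM (3.88e-05), the last a level of 0.764 of PBS.

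Xirp1 and Xirp2 code for the Xin repeat proteins, actin-binding proteins that associate with N-cadherin and beta-catenin at the disc. Xirp1 (chromosome 9, 120013755 to 120023598, ENSMUSG00000079243) had normalized counts of 2342, 2205 and 2199 in PBS, 2160, 2120 and 2109 under mLIF, 2238, 2311 and 2614 under mOSM, and 2245, 2324 and 2355 under hlOSM. Xirp2 (chromosome 2, 67173834 to 67526615, ENSMUSG00000027022) had 7185, 7033 and 7026 in PBS, 7204, 6595 and 6334 under mLIF, 6049, 6248 and 7486 under mOSM, and 6469, 6901 and 6821 under hlOSM. For either gene the oncostatin M libraries differed among themselves about as much as they did from PBS, and mOSM replicate 3 was the highest library of both genes. The mLIF libraries of Xirp1 all lay below its lowest PBS library. Xirp1 had log2 fold changes of -0.08 (95% interval -0.19 to 0.03, limma, adjusted p = 0.381), 0.08 (-0.03 to 0.20, 0.257) and 0.04 (-0.07 to 0.15, 0.615) with mLIF, mOSM and hlOSM. Xirp2 had -0.08 (-0.21 to 0.06, 0.472), -0.11 (-0.24 to 0.03, 0.218) and -0.07 (-0.21 to 0.06, 0.396). Without mOSM replicate 3, Xirp2 was lowered with mOSM, at -0.20 (adjusted p = 0.00238).

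**Figure D2:**
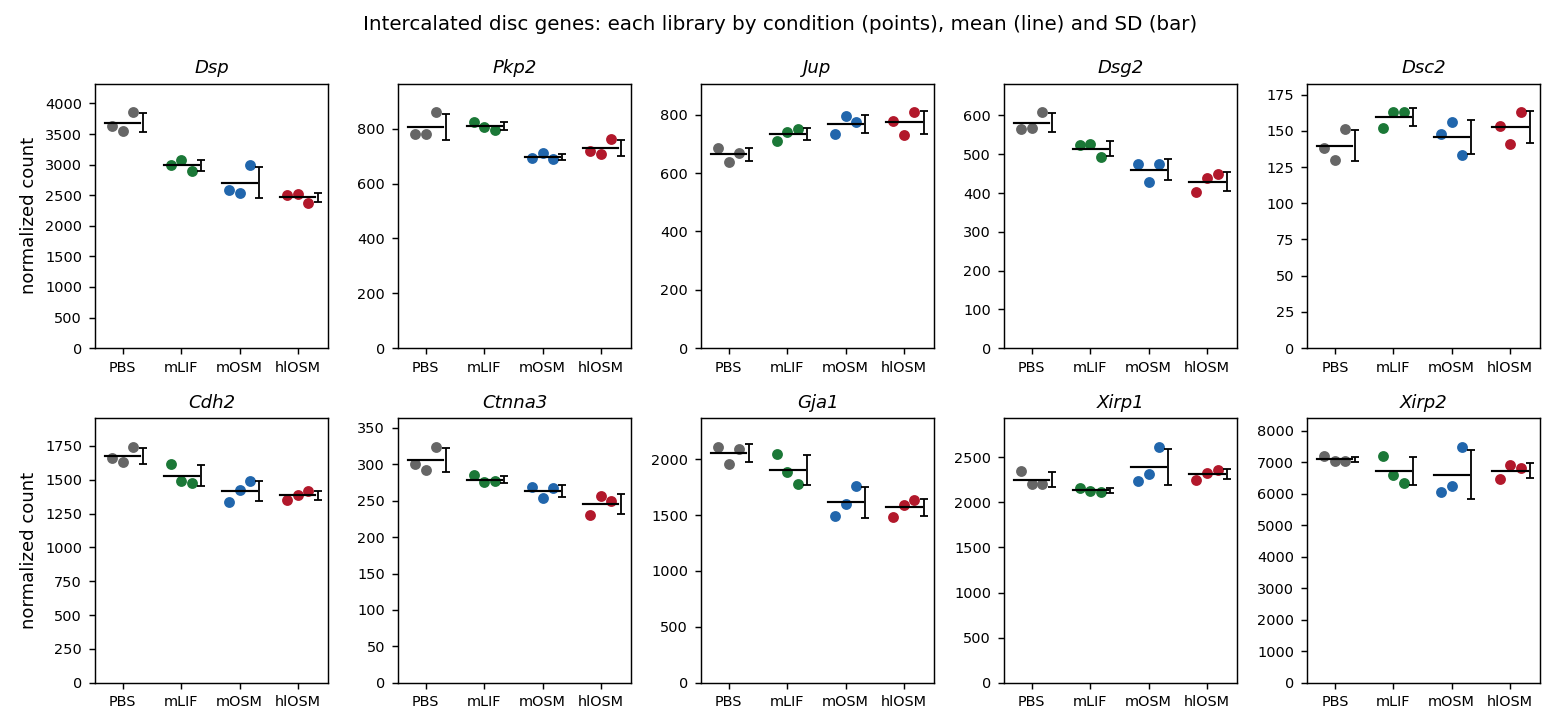
Normalized counts of each gene (vertical axes from 0) in the 3 libraries of PBS, mLIF, mOSM and hlOSM, with the mean as a line and the SD as a bar. Dsp steps down from 3557 to 3861 in PBS to 2376 to 2514 with hlOSM, Jup goes up, and mOSM replicate 3 (the rightmost blue point) is the highest mOSM library of Dsp, Cdh2, Gja1, Xirp1 and Xirp2.

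**Figure D3:**
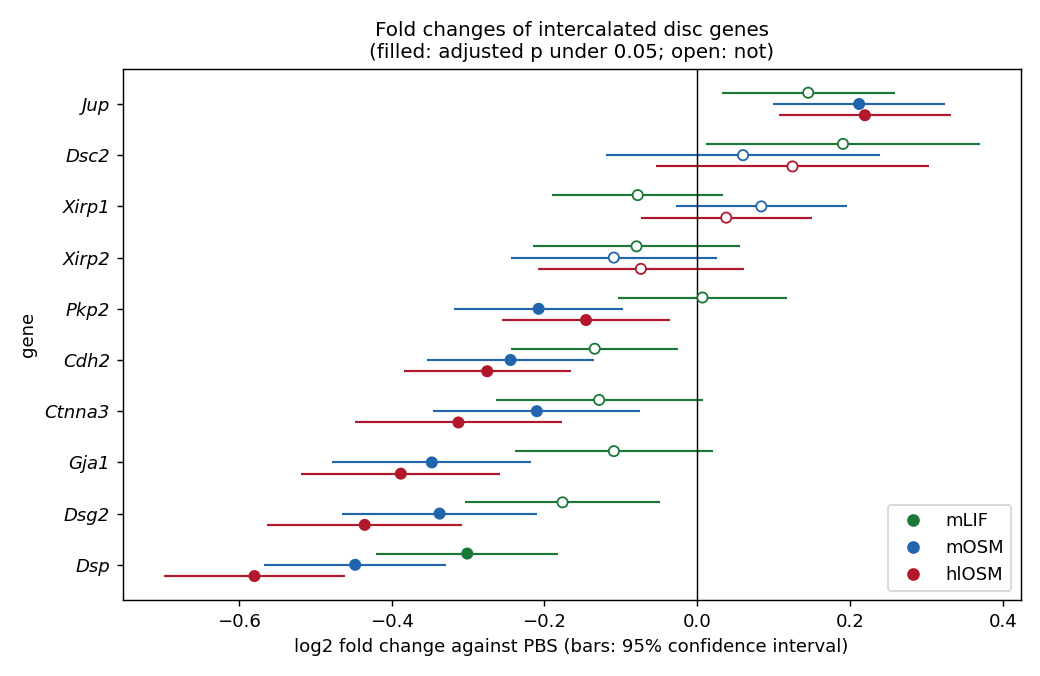
Log2 fold change of each gene against PBS on the deposited scale with 95% confidence intervals; filled circles passed an adjusted p of 0.05. Jup is at the top (0.22 with hlOSM), Dsp at the bottom (-0.58 with hlOSM); on the scale of the cardiomyocyte markers Pkp2, Cdh2 and Ctnna3 lie above 0 with all 3 proteins.

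Markers of cell types moved with treatment, and these values belong beside the falls. Cardiomyocyte markers (Myh6, Tnnt2, Tnni3, Actc1, Ryr2, Pln, Mb and Myl2) were present in all libraries, as the sample labels say, and their summed normalized count was 15482 to 17171 in PBS, 13166 to 14740 with mLIF, 12017 to 14182 with mOSM and 12570 to 12982 with hlOSM. Of these 8 markers, mLIF lowered 5, mOSM 6 and hlOSM 6, or 3, 6 and 6 in the blocked fit. The sum of 6 endothelial markers was 969 to 1020, 970 to 1013, 1232 to 1337 and 1217 to 1327 in the same order, and 5 of the 6 were raised with mOSM and with hlOSM. The fibroblast sum was 1878 to 2141, 1823 to 1833, 1674 to 1835 and 1588 to 1651, the smooth muscle and pericyte sum 444 to 527, 416 to 453, 371 to 468 and 353 to 384, and the macrophage and leukocyte sum 296 to 314, 277 to 316, 337 to 381 and 311 to 382. Markers of a list did not all move one way: of the fibroblast markers, hlOSM raised 2, Dcn (0.98) and Lum (0.37; limma, adjusted p = 0.0748 with the block), and lowered 5, and of the macrophage markers it raised Cd68 (1.28) and lowered Lyz2 (-0.27). With mOSM, Cd68 was the 1 macrophage marker raised (1.22), and of the fibroblast markers Dcn was raised (1.09) and 3 were lowered. Mesothelial markers stayed between 5 and 27, and 0 of the markers of any list were at 0 in all libraries. In bulk RNA, fewer cells of a type and less RNA per cell cannot be told apart, and the part of these shifts in the results was not tested.

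Each value was also divided by the cardiomyocyte marker sum of its library, an alternative added after the data were seen. The sum weighs markers by their level: in PBS, Ryr2 (mean 5994) and Myh6 (3765) made up most of the mean sum of 16258. The median log2 fold change of all tested genes then shifted to 0.22, 0.32 and 0.34 for mLIF, mOSM and hlOSM. Among the 10 genes, 4 were raised and 0 lowered with mLIF, beside 30.1% and 0.796% of all genes; with mOSM it was 4 and 1, beside 56% and 4.26%; with hlOSM it was 5 and 1, beside 57.5% and 5.69%. Dsp had -0.08 with mLIF (limma, adjusted p = 0.186), -0.11 with mOSM (0.0450) and -0.23 with hlOSM (0.000610), so that it fell more than the marker sum with both forms of oncostatin M. The call with mOSM stood close to the threshold, and neither the block nor leaving out libraries was run on this scale, so its firmness is not known. It did not fall clearly beyond every single marker. On the deposited scale Pln and Tnnt2 had -0.54 and -0.49 with mOSM, where Dsp had -0.45. With hlOSM both had -0.56, where Dsp had -0.58. The other markers of the sum fell less than Dsp with either form. Dsg2 and Gja1 fell about as far as the marker sum: Dsg2 had -0.0044 with mOSM (adjusted p = 0.961) and -0.08 with hlOSM (0.329), and Gja1 had -0.014 (0.821) and -0.034 (0.568). Cdh2 at 0.09 and 0.08, Ctnna3 at 0.12 and 0.04, and Pkp2 at 0.13 and 0.21 with mOSM and hlOSM lay above 0 on this scale, and Pkp2 with hlOSM passed there (adjusted p = 0.0139). Jup rose with all 3, by 0.36, 0.54 and 0.57. Against the shifted median of all genes, Dsp, Dsg2, Gja1, Cdh2, Ctnna3, Pkp2 and Xirp2 lay below it and Jup, Dsc2 and Xirp1 above it with mOSM and hlOSM. The division moves all genes of a library alike, so their order says nothing of the scale. With either form of oncostatin M, Dsp and Jup passed in the same direction on both scales, and the other 5 called genes lost their call or changed direction. Since the marker sum was lower with these proteins, the division moved genes up, so the rise of Jup could not turn. Its agreement on both scales therefore adds nothing, and only a fall could have been lost.

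**Figure D4:**
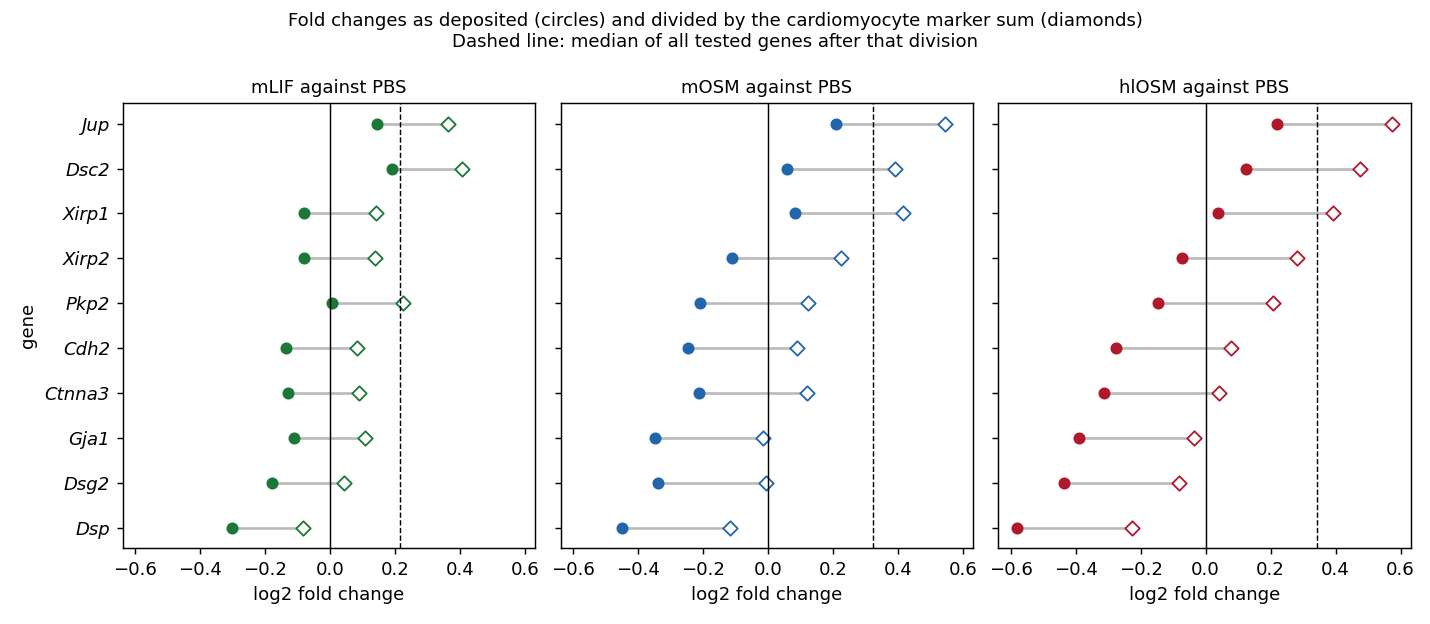
Log2 fold change of each gene against PBS on the deposited scale (filled circles) and after division by the cardiomyocyte marker sum (open diamonds), 1 panel per protein; the solid line is 0 and the dashed line the median of all tested genes after the division (0.22, 0.32 and 0.34). With hlOSM, Dsp stays left of 0 at -0.23, Gja1 is at -0.03 and Cdh2 at 0.08, and Jup lies right of the dashed line at 0.57.

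Direct comparisons between the proteins address whether ligands of OSMR and of LIFR differ in their effect on these genes. These share libraries with the comparisons against PBS. Of mOSM against mLIF, 2 of the 10 genes were called, beside 11.8% of all genes (8.81% with the block, with the count still 2): Pkp2 was lower with mOSM by a log2 fold change of -0.21 (limma, adjusted p = 0.00846) and Gja1 by -0.24 (0.0129). The Gja1 difference was lost without mLIF replicate 1 (adjusted p = 0.105) or mOSM replicate 1 (0.0890), and Dsp was lower too without mOSM replicate 3 (-0.22, 0.00256). Xirp1 went the other way, higher with mOSM by 0.16, and stood close to the threshold (adjusted p = 0.0544). It passed with trimmed-mean rescaling (0.0297), quantile rescaling (0.000965) or a robust fit (0.0450), but not with the replicate block (0.0854). Of 23 alternatives it passed in 6, and its limma adjusted p reached 0.189. Of hlOSM against mLIF, 3 genes were called, beside 16.6% (12.2% with the block, with the count still 3). These were Dsp at -0.28 (adjusted p = 0.00142), Dsg2 at -0.26 (0.00498) and Gja1 at -0.28 (0.00314), all lower with hlOSM. Without mOSM replicate 3, which enters that fit only through the shared spread, 7 genes were called, and without PBS replicate 3 there were 5. The shares of all genes called in those fits are not given, so these counts are no result about the members. Pkp2, Ctnna3 and Cdh2, called without mOSM replicate 3 together with Xirp1, stood close to the threshold in the full fit (adjusted p = 0.0532, 0.0572 and 0.0728). On the marker scale neither gene called in mOSM against mLIF passed, with -0.10 for Pkp2 (adjusted p = 0.365) and -0.12 for Gja1 (0.121), and the 1 gene called there was Xirp1, at 0.28 (0.00230), beside 11.8% of all genes. In hlOSM against mLIF on that scale, Gja1 had -0.14 (0.0583) and Dsg2 -0.12 (0.239), and the 3 genes called, beside 17.3% of all genes, were Dsp at -0.14 (0.0447), Xirp1 at 0.25 (0.00394) and Xirp2 at 0.14 (0.0415).

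Between hlOSM and mOSM, 0 of the 10 genes were called by limma, beside 0.106% of all genes (0.0152% with the block). At an unadjusted p under 0.05 there was 1 of the 10, beside 987 of the 13184 genes, and that was Dsp, at -0.13 (95% interval -0.25 to -0.01, adjusted p = 0.610). After quantile rescaling Dsp passed narrowly, at -0.16 (adjusted p = 0.0479). For the others the intervals of the difference included 0, from -0.24 to 0.03 for Ctnna3 to -0.11 to 0.24 for Dsc2, which leaves room for differences of that size. The interaction asked whether the step from mOSM to hlOSM differed from the step from PBS to mLIF. It was called in 0 of the 10 genes, beside 0.167% of all genes (0.106% with the block), with 1 of the 10 at an unadjusted p under 0.05, beside 1521 of the 13184 genes, and a lowest adjusted p of 0.430.

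Beyond the 10 genes, 59 other genes of the disc were listed by role, of which 50 were in the table and 41 passed the filter. Of these 41, mLIF raised 1 and lowered 5, mOSM raised 8 and lowered 12, and hlOSM raised 9 and lowered 14; the blocked fit gave 1 and 5, 6 and 10, and 7 and 13. The shares of all tested genes raised and lowered were 5.47% and 4.44%, 15.4% and 15.8%, and 18.2% and 19.8%. The median log2 fold change of the 41 was -0.02, -0.02 and -0.04, close to that of all genes. On the marker scale the counts turned to 17 and 2, 27 and 4, and 25 and 4, where 30.1% and 0.796%, 56% and 4.26%, and 57.5% and 5.69% of all genes were raised and lowered. In the list of channels and scaffolds, hlOSM raised 2 and lowered 6 of 15. Scn4b, a beta subunit of the cardiac sodium channel, had the deepest fall of the 41 with hlOSM at -1.40 ± 0.10 (SE, limma, adjusted p = 4.63e-10), and was lowered with mLIF (-0.59) and mOSM too. Kcnj2, the inward rectifier potassium channel that sets the resting potential, fell by 0.77 on the log2 scale with hlOSM, and Ank2, an ankyrin that anchors ion transporters, by 0.42 (Ank2 had -0.07 on the marker scale, adjusted p = 0.372). Ank3 (ankyrin-G), which anchors sodium channels, rose by 0.44 with hlOSM. On the marker scale hlOSM lowered 4 of the 41, namely Scn4b (-1.04), Myzap (-0.49), Gja3 (-0.46) and Kcnj2 (-0.41).

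In the adherens junction list with hlOSM, 5 of 18 tested genes were raised and 5 lowered, beside 18.2% and 19.8% of all tested genes. The same shares stand beside the counts of the short lists below, which are too few to differ from them. Myzap, which codes for the disc protein myozap, fell by 0.84 on the log2 scale (limma, adjusted p = 1.03e-09) and also with mLIF and mOSM, by 0.49 and 0.61. Cdh13 (T-cadherin) had -0.37 with hlOSM, and -0.01 on the marker scale (adjusted p = 0.911). Nectin2, a nectin adhesion molecule, rose by 0.44 with hlOSM and by 0.40 with mOSM. In the desmosome list, 1 of 4 tested genes was raised and 2 were lowered with hlOSM. Perp, a tetraspan membrane protein of desmosomes, had -0.32 with hlOSM (0.03 on the marker scale) and Pkp4 (plakophilin 4) -0.20 (0.16 on the marker scale). Plec (plectin), a linker of desmin filaments, had 0.17 (adjusted p = 0.0271). The Plec call was lost without PBS replicate 1 or 3 or hlOSM replicate 1 or 2 (adjusted p = 0.0588, 0.0977, 0.0825 and 0.0695), and that of Pkp4 without PBS replicate 3 (0.0697) or hlOSM replicate 2 (0.0504). Of the 4 tested connexins and pannexin, hlOSM raised 1 and lowered 1. Gja3 (connexin 46) fell by 0.81 with hlOSM and by 0.68 with mOSM. Panx1 (pannexin 1), named after its values were seen, had 0.77 with hlOSM (adjusted p = 0.0353, and 0.0770 with the block). Its normalized counts were 10, 9 and 7 in PBS and 12, 13 and 23 with hlOSM, close to the minimum of the filter. It met that filter through libraries of the cytokine groups, where it was higher, so its call is a description only.

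**Figure D5:**
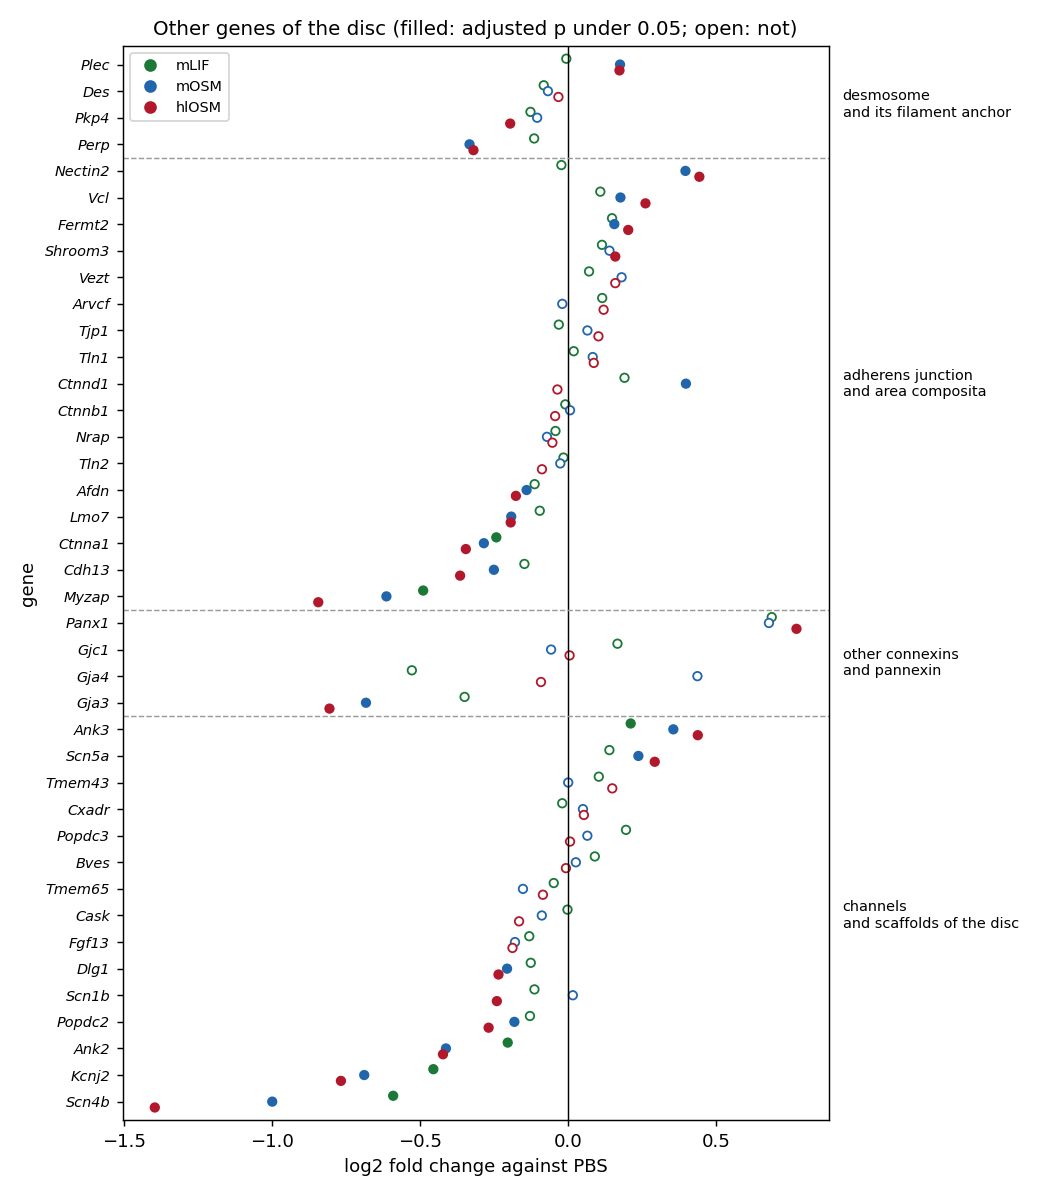
Log2 fold change against PBS on the deposited scale of 40 of the 41 other disc genes tested, in 4 lists separated by dashed lines; filled circles passed an adjusted p of 0.05. Scn4b is the lowest at -1.40 with hlOSM, and the raised genes Nectin2 and Ank3 lie at 0.44 with hlOSM; on the marker scale hlOSM raised 25 of the 41, and 57.5% of all tested genes.

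Genes with the most similar course over the 12 libraries were sought among 8669 genes whose mean reached 50, as a description, since all share the same libraries and conditions. For Dsp they were Smarca2 (Pearson r = 0.99), Pacsin2 (0.99) and Txlnb (0.99). Txlnb codes for beta-taxilin, a muscle protein, and its mean was 1970 in PBS, 1544 with mLIF, 1364 with mOSM and 1260 with hlOSM. For Jup they were Txn1 (0.97), Bak1 (0.97) and Kars (0.97). Txn1 codes for the redox protein thioredoxin 1 and had means of 105, 131, 143 and 142 in the same order.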

How the data were processed

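RNA of 12 libraries was analysed, 3 per condition, grouped by sample title. Per the submitters' processing notes and the study's methods, trimmed reads were mapped to mm10 by STAR 2.7.7a and those in exons of a single gene were counted by featureCounts 1.6.5. The authors then normalized the counts between libraries and rounded the result, so each deposited value is a score on a count scale. The normalization, and whether counting used strand, are not given in the sources used here. The study's methods give an average read number per library. The reads counted in each library, and so the counting error, are unknown. Totals were 2745748 to 2911891.

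Members and lists were chosen with earlier results of these data known. Values were tested with limma 3.58.1 (mean-variance trend) in R 4.3.3 on log2(normalized count + 1), for genes with at least 10 in at least 3 libraries, 4 conditions in 1 fit, two-sided, with Benjamini-Hochberg adjusted p under 0.05. The steps were tested on simulated data with independent libraries, which cannot show the effect of the almost equal averages by replicate number. Fold changes on this scale slightly understate those of low genes. The fit has no replicate term: deviations of same-numbered libraries correlated between -0.52 and 0.02, below 0 in 17 of 18 pairs. Because averages by replicate number were almost equal, such correlations are pulled below 0, and whether the numbers pair libraries cannot be told from them.

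All 10 members are named. From each list of other disc genes, up to 4 genes past the threshold with hlOSM, with a mean of at least 50 and the largest changes, are named, and for the strongest rise and fall among members the 3 genes closest in course. Of the genes that this rule takes, 1 is not reported here. Lengths came from GENCODE M21, where 22876 identifiers were found, 22676 with the same start and end (not Xirp2). Alternatives were pseudocounts of 0.1 and 5, filters at 0 and at 50, rescaling by trimmed mean or by quantiles, robust moderation, fits on only the 6 libraries of a comparison, the block, a threshold of 0.01, leaving out each library, and division by the sum of 8 cardiomyocyte markers, chosen after seeing the data.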

Additional observations from a re-analysis of the deposited data

How the results depend on the processing

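A pseudocount of 0.1 or 5, a filter at 50 and a robust fit each moved no count of called genes by over 1.5 times. With a fit of the 6 libraries compared, mLIF had 1 member raised and 3 lowered and 3 other disc genes raised, and hlOSM against mLIF had 5 members called, as with trimmed-mean rescaling. Quantile rescaling gave 1, 2 and 2 members raised with mLIF, mOSM and hlOSM, 4 other disc genes raised with mLIF, and 5, 7 and 1 members called in mOSM against mLIF, hlOSM against mLIF and hlOSM against mOSM. The last was Dsp, at -0.16 (limma, adjusted p = 0.0479). Shares of all genes called between proteins, and in the 6-library fits, are not given, so these counts are no result about the members. At an adjusted p under 0.01, mLIF raised 0 and mOSM 3 of the other disc genes, and mOSM against mLIF called 1 member. Without a filter mOSM raised 4 of the other disc genes.

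With the replicate block, counts of members stayed as they were except for hlOSM, with 5 lowered in place of 6, where Pkp2 (-0.15) no longer passed (adjusted p = 0.0647). Whether same-numbered libraries share a preparation cannot be told from these values, in which averages by replicate number were almost equal.

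After division by the cardiomyocyte marker sum, chosen after the data were seen, members raised were 4, 4 and 5 and lowered 0, 1 and 1 under mLIF, mOSM and hlOSM; other disc genes raised were 17, 27 and 25 and lowered 2, 4 and 4; and mOSM against mLIF called 1 member, Xirp1 (0.28), and neither Pkp2 nor Gja1. Directions turned for Pkp2 (0.13 with mOSM, 0.21 with hlOSM), Dsg2 (0.042 with mLIF), Cdh2 (0.085, 0.089 and 0.079 with mLIF, mOSM and hlOSM), Ctnna3 (0.090, 0.12 and 0.040), Gja1 (0.11 with mLIF), Xirp1 (0.14 with mLIF), Xirp2 (0.14, 0.22 and 0.28), and, with hlOSM, Perp (0.033) and Pkp4 (0.16). Between proteins they turned for Cdh2 (0.0041), Ctnna3 (0.032) and Xirp2 (0.085) in mOSM against mLIF and Dsc2 (0.068) in hlOSM against mLIF. The cause was not tested.

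Leaving out 1 library at a time gave 5 to 7 members lowered with mOSM, 5 to 6 with hlOSM and 1 to 1 with mLIF, 1 to 1 raised with mOSM and hlOSM and 0 to 0 with mLIF. Members called were 1 to 3 in mOSM against mLIF, 3 to 7 in hlOSM against mLIF and 0 to 0 in hlOSM against mOSM and in the interaction. Other disc genes raised were 0 to 2, 4 to 8 and 6 to 9, and lowered 3 to 5, 10 to 13 and 12 to 14. The shares of all genes called without a library are not given, so these ranges show only how far the counts moved. The lowest counts came without PBS replicate 3 or mLIF replicate 3 (0 raised and 3 lowered with mLIF) and without PBS replicate 2 or 3 (5 and 4 raised with mOSM). Signs turned in differences that were not called: Pkp2 with mLIF ranged from -0.018 to 0.054 and, in hlOSM against mOSM, Jup from -0.026 to 0.047, Cdh2 from -0.071 to 0.0061, Gja1 from -0.098 to 0.024, Xirp1 from -0.091 to 0.021 and Xirp2 from -0.024 to 0.13. Xirp2 ranged from -0.12 to 0.029 in mOSM against mLIF and from -0.035 to 0.058 in hlOSM against mLIF. The reads counted in each library are unknown, so the precision of a single value rests on the spread of 3 libraries.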
